A study of Bos taurus with 94 samples.

Results

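The anterior pituitary of adult Hereford cattle was compared with the posterior pituitary across the 7434 genes that reached 10 FPKM in either lobe, of 24616 genes measured. FPKM scales the fragments read from a gene to the length of its transcript and to the mapped fragments of the library. A library of the pituitary stalk and median eminence was placed between the lobes. Each of these 3 tissues gave 1 library, so no replicate error, p-value or standard deviation exists for any difference between them, and every comparison below sets single libraries beside each other. The other 91 libraries of the series, 8 brain regions, the pineal gland and 82 libraries of other tissues among them, serve as a reference for where the same genes are used. All 94 libraries carry the same breed and age labels, the fetal testis included. No label names the animal, its sex or its physiological state, apart from what some tissue names imply. Examples among the reference libraries are fetal testis, bull testis, cancer eye and the oviduct and uterine tissues labelled ipsilateral_CL. All were made from total RNA of snap-frozen tissue with no treatment named.

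The anterior lobe is a gland of epithelial origin whose cells make and store the protein hormones that drive growth, lactation, reproduction, the thyroid and the adrenal cortex. The posterior lobe is an outgrowth of the brain, made of axon endings of hypothalamic neurons and of pituicytes, a kind of glia. The stalk carries those axons and the portal vessels, and in the median eminence hypothalamic factors enter the portal blood. In cattle, as in many mammals, an intermediate lobe of hormone-making cells lies against the posterior lobe. The files do not pair the Ensembl gene identifiers with names, so no hormone, receptor or glial marker could be looked up, and the tissue labels were not checked against defining markers. Genes are described below by their levels and by where else they are expressed, with an identifier for a few.

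The lobes differed mostly in 1 direction. At a log2(FPKM + 1) difference of at least 2, that is at least about 4-fold, 13 genes were higher in the anterior pituitary (0.175% of 7434) and 248 were higher in the posterior pituitary (3.34%). In pieces of tissue, fewer cells of a kind and less RNA per cell cannot be told apart. Most genes lay close together: 6605 genes (88.8%) differed by less than 1 on the log2 scale. The middle 50% of differences, anterior minus posterior, ran from -0.46 to 0.07, and the median was -0.18, a small shift of the whole distribution toward the posterior lobe. The tails were uneven, with the lowest 1% of genes under -3.70 and the highest 1% above 1.23. At a difference of at least 1, 138 genes were higher in the anterior lobe and 691 in the posterior lobe, and at a difference of at least 3 the counts were 3 and 125.

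**Figure D1:**
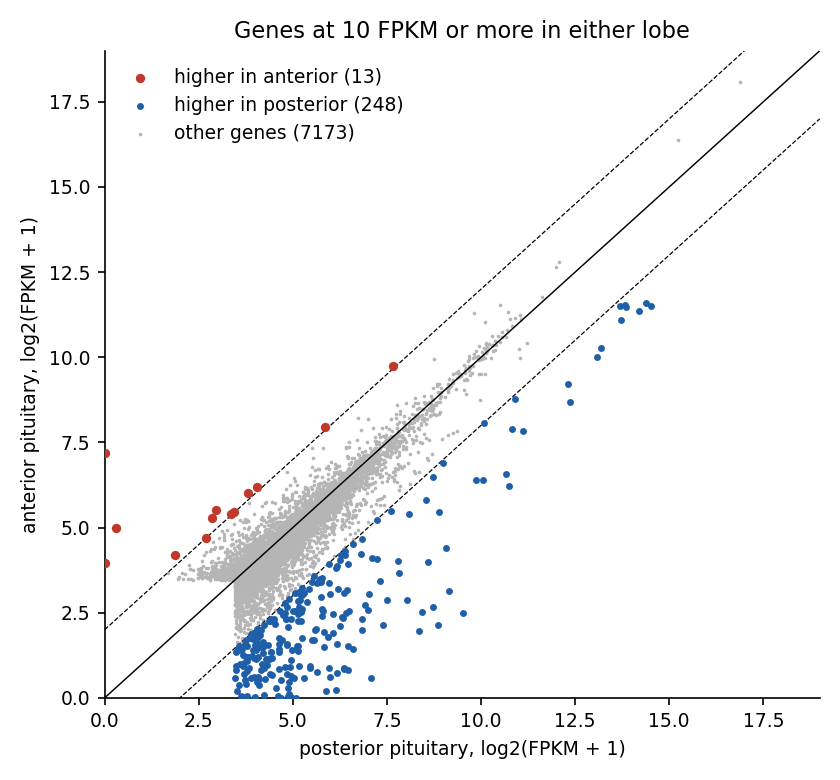
Level of each of 7434 genes in the posterior pituitary (x axis) and the anterior pituitary (y axis), both as log2(FPKM + 1), with 1 library per lobe; the solid line marks equal levels and the dashed lines a log2 difference of 2. The 248 genes higher in the posterior lobe spread far below the diagonal, while the 13 higher in the anterior lobe sit close to the upper dashed line except for 3 genes near 0 in the posterior lobe.

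Scaling moved these counts without turning their order. When the libraries were scaled to the median ratio of genes expressed in both lobes, which brings the median difference from -0.18 to -0.04, 15 genes were higher in the anterior lobe and 218 in the posterior lobe. With quantile normalization the counts were 35 and 231, and the share of differing genes that were higher in the anterior lobe was 13.2% against 4.98% as deposited. Genes at the limits were barely separated: the lowest gene included reached 10.003 FPKM in its higher lobe and the highest left out 9.999. Among differences, 2.01 was counted and 1.99 was not on the anterior side, and -2.0004 was counted and -1.995 was not on the posterior side.

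The 13 genes higher in the anterior lobe were of 2 kinds. For 3 of them the posterior library was at or near 0. ENSBTAG00000035926 had 145.9 FPKM in the anterior pituitary, 189 FPKM in the stalk and was listed at 0 in the posterior pituitary, a log2 difference of 7.20 on the log2(FPKM + 1) scale. Its level in the pineal gland was 178 FPKM, and the 8 brain libraries ran from 0 to 86.1 with a median of 4.20. The posterior library thus stood apart from both other pituitary libraries for this gene, and an exact 0 in such a table can also be a failed estimate. ENSBTAG00000037452 had 30.7 FPKM in the anterior pituitary, 7.83 in the stalk and 0.236 in the posterior pituitary, a log2 difference of 4.68. The pineal gland had 0.119 FPKM of it, the brain libraries had at most 2.76, and the body of the epididymis had the most of any library at 115.7.

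For the other 10 genes the difference was small, between 2.01 and 2.56 on the log2 scale, and the posterior lobe kept a measurable level. The most abundant had 852 FPKM in the anterior pituitary, 64.6 in the stalk and 200.2 in the posterior pituitary, and the next had 247 FPKM in the anterior pituitary, 12.7 in the stalk and 57.1 in the posterior pituitary. The stalk was below the posterior lobe for all 10 of these. Another of them had 72.3 FPKM in the anterior pituitary, 0.0304 in the stalk and 15.6 in the posterior pituitary, and reached 1 FPKM in 12 of 94 libraries, which makes it the most restricted of the 13. Across all 13 genes the median level was 5.45 in the anterior lobe, 2.04 in the stalk and 2.96 in the posterior lobe on the log2(FPKM + 1) scale. The brain regions had medians of 0 to 1.64. Over the brain, 7 of the 13 genes had a median under 1 FPKM, a count not made for all genes compared. Low levels were not confined to the brain: the 82 other libraries had a median of 1.13. They ran from 0 to 3.70, the highest in the library labelled Fornix_vagina, and the posterior lobe ranked 14 of 94. The anterior pituitary held the highest level of all 94 libraries for 5 of the 13 genes, against 87 (1.17%) of the 7434 genes compared, though these 13 were chosen for a high anterior level. The other 8 peaked in 8 different tissues.

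The 248 genes higher in the posterior pituitary were mostly genes that the brain expressed at a high level. ENSBTAG00000022890 had 4.59 FPKM in the anterior pituitary, 71.3 FPKM in the stalk and 730 FPKM in the posterior pituitary, a log2 difference of -7.03, the lowest of all genes compared. The brain libraries had 3482 to 19876 FPKM of it, the thalamus the most, while 82 libraries of other tissues had a median of 3.78 and at most 56.1 FPKM. The anterior lobe was close to the median of the other tissues, and the posterior lobe stood between those tissues and the brain. ENSBTAG00000043555 had 3.39 FPKM in the anterior pituitary, 163 in the stalk and 464 in the posterior pituitary, a log2 difference of -6.73. It was expressed broadly: the brain ran from 161 to 1261 FPKM, and the 82 other tissues from 1.90 to 814 with a median of 34.4.

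In medians, the 248 genes stood at 1.90 in the anterior lobe, 4.56 in the stalk and 5.13 in the posterior lobe on the log2(FPKM + 1) scale. The 8 brain regions were higher than all 3, from 5.41 in the thalamus to 6.26 in the temporal cortex. Among the 82 libraries of other tissues the median was 3.16 and the highest was the pigment epithelium of the eye at 4.78. The genes were chosen from the lobes alone, so the levels in the brain and other libraries played no part in that choice. For the 7434 genes compared, the same medians were 4.41 in the anterior lobe, 4.90 in the stalk and 4.63 in the posterior lobe, and 4.09 to 4.67 in the brain. Gene by gene, all 8 brain libraries exceeded the posterior lobe for 81 of the 248 genes (32.7%), against 7.68% of all genes compared. A brain region held the highest level of the 94 libraries for 123 of the 248 genes (49.6%), against 14.1% of all genes compared.

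**Figure D2:**
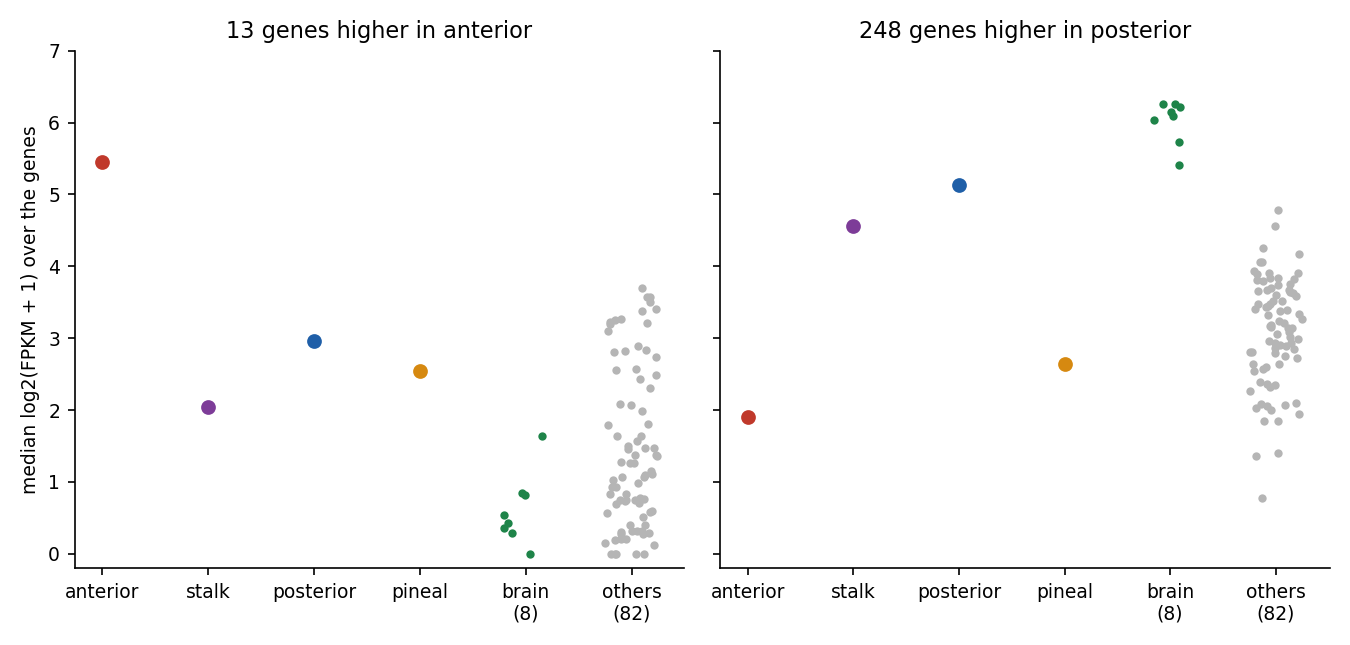
Median log2(FPKM + 1) over the 13 genes higher in the anterior lobe (left panel) and the 248 higher in the posterior lobe (right panel), 1 point per library, for the anterior pituitary, stalk, posterior pituitary, pineal gland, 8 brain regions and 82 other libraries. For the 248 genes the brain (5.41 to 6.26) lies above the posterior lobe (5.13) and the stalk (4.56), while for the 13 genes the brain (0 to 1.64) lies below all 3 pituitary libraries.

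The 248 genes were divided into 3 sets by the median of the brain, so the brain levels below describe the division, and the stalk and other libraries were not used in it. The same division was not made for all genes compared, so the shares below have no reference beside them. For 169 genes (68.1%) the brain was at or above the posterior lobe; these stood at 1.77 in the anterior lobe, 4.20 in the stalk and 5.08 in the posterior lobe, and at 6.79 to 7.32 in the brain regions. For 61 genes (24.6%) the brain lay between the lobes. In this set the stalk (5.03) and the posterior lobe (5.04) had the same median to within 0.01, the anterior lobe stood at 2.14, and the library labelled Ant_Eye (5.86) was the highest outside the brain and pituitary. For the remaining 18 genes (7.26%) the brain was at or below the anterior lobe, with 1.15 to 2.85 in the brain regions against 2.63 in the anterior lobe, 4.76 in the stalk and 5.42 in the posterior lobe. Of these 18, the posterior pituitary was the highest of all 94 libraries for 3 genes. It was so for 4 of the 248 in all (1.61%), against 8 of the 7434 genes compared (0.108%), though the 248 were chosen for a high posterior level. Few genes in either group were thus found at their highest in the posterior lobe.

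The most abundant of the 248 genes belonged to the third set. It had 2929 FPKM in the anterior pituitary, 26.3 FPKM in the stalk and 23419 FPKM in the posterior pituitary, where it was the third most abundant transcript, and no other library of the 94 had more. The pineal gland had 4249 FPKM, the brain regions 6.25 to 78.6, and the highest of the other 82 libraries was the library labelled mammary with 1373. It was thus low both in the stalk and in the brain. The stalk was below the anterior lobe for 5 of the 248 genes, 4 of them in the same set.

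The breadth of expression also differed between the groups of genes. The 13 genes higher in the anterior lobe reached 1 FPKM in a median of 42 libraries and the 248 higher in the posterior lobe in a median of 85, against 94 of 94 for the genes compared as a whole. Of the 248 genes, 56 (22.6%) reached 1 FPKM in every library, against 56.7% of all genes compared, and 29 (11.7%) did so in 30 or fewer, against 2.39%. Of the 7434 genes compared between the lobes, 3 had at least 10 FPKM in the anterior lobe and under 1 in the posterior lobe. The reverse held for 62, with at least 10 FPKM in the posterior lobe and under 1 in the anterior lobe. Of the 3 genes, 2 were listed at exactly 0 in the posterior lobe, and of the 62 genes, 4 were listed at 0 in the anterior lobe.

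The stalk and median eminence was scored for each gene by its position between the lobes on the log2(FPKM + 1) scale, where 1 is the anterior level and 0 the posterior level. Over the 248 genes higher in the posterior lobe the median position was 0.23. The stalk lay between the lobes for 170 of them (68.5%), beyond the posterior lobe for 73 (29.4%) and beyond the anterior lobe for 5 (2.02%). For all genes compared, most of which hardly differ between the lobes, the stalk lay between them in 18.5%, beyond the posterior lobe in 61.6% and beyond the anterior lobe in 19.9%. The 13 genes higher in the anterior lobe behaved otherwise, with a median position of -0.76. The stalk was between the lobes for 1 of these, below the posterior lobe for 10 and above the anterior lobe for 2. The share of all 261 differing genes for which the stalk was nearer the anterior lobe was 22.2%, close to the 26.5% over all genes compared, and under other scalings it ran between 17.7% and 34.3%. This share therefore does not set the differing genes apart.

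**Figure D3:**
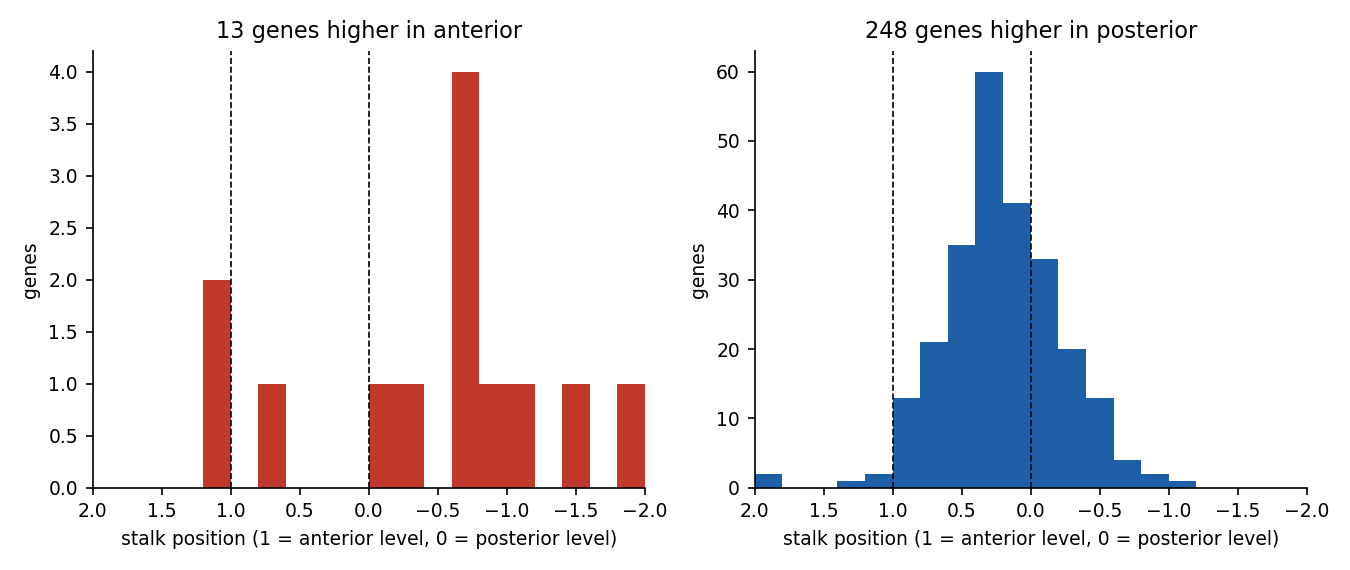
Position of the stalk and median eminence between the lobes for the 13 genes higher in the anterior lobe (left panel) and the 248 higher in the posterior lobe (right panel), as number of genes per 0.2 of position; the dashed lines mark the anterior (1) and posterior (0) levels, and positions past 2 or -2 are drawn in the outermost bars. The stalk centres at 0.23 for the 248 genes and lies past the posterior level for 10 of the 13.

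Counted directly, the anterior pituitary had 108 genes higher (1.3% of 8292 genes at 10 FPKM in either) and 518 lower (6.25%) than the stalk, by at least 2 on the log2 scale. The stalk had 149 genes higher (1.8% of 8279) and 90 lower (1.09%) than the posterior pituitary. The 3 pairs share libraries, so these counts are not independent of each other or of the counts between the lobes. The median difference over genes was -0.51 for anterior minus stalk and 0.30 for stalk minus posterior, larger shifts than between the lobes. Spearman's rho over 18031 genes, which are not independent replicates, was 0.922 between anterior lobe and stalk and 0.953 between stalk and posterior lobe. The lobes themselves correlated at 0.948.

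The genes that were higher in the anterior lobe than in the stalk were also measured in the posterior library. The 108 genes higher in the anterior pituitary than in the stalk had median levels of 4.91 in the anterior lobe, 1.63 in the stalk and 3.74 in the posterior lobe. The low stalk level had been used to choose these genes, and both the posterior lobe (all 108) and the pineal gland (104 of 108) were above it. The posterior level was a median of 44.7% of the anterior level, and for the middle 50% of genes 31.8% to 56.8%, where the high anterior level had been used to choose the genes as well. In 5 of the 108 the posterior lobe exceeded the anterior lobe. Brain regions had medians of 1.04 to 2.95 for these genes and the 82 other libraries 0.84. The library labelled mammary was the highest of those 82 at 2.96. Whether anterior or intermediate lobe tissue was part of the dissected posterior lobe was not tested.

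**Figure D4:**
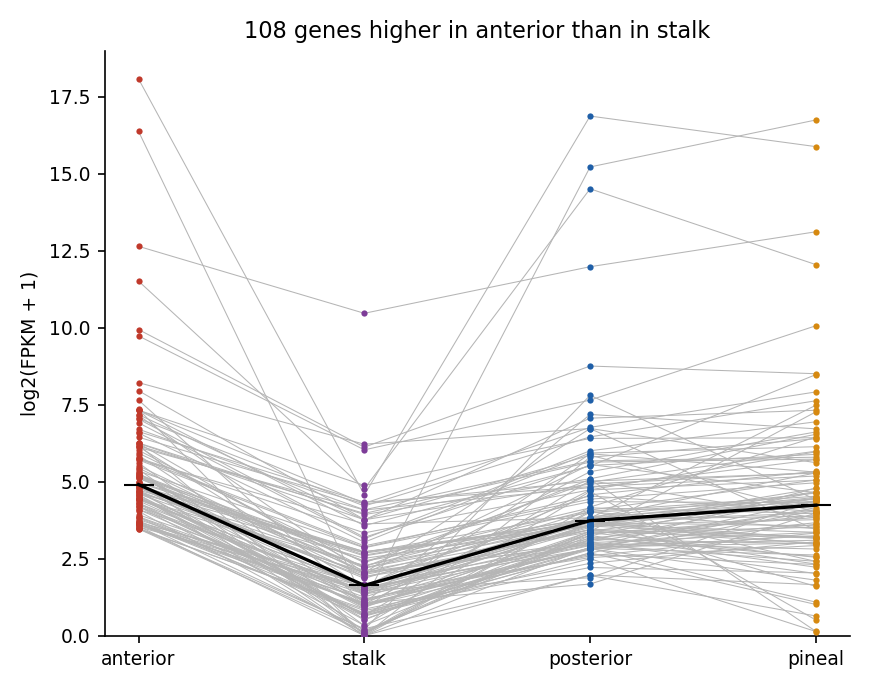
Level of the 108 genes that were higher in the anterior pituitary than in the stalk, as log2(FPKM + 1), in the anterior pituitary, stalk, posterior pituitary and pineal gland; each grey line is a gene and the black line joins the medians. The median is 4.91 in the anterior lobe, 1.63 in the stalk, 3.74 in the posterior lobe and 4.24 in the pineal gland.

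The 2 leading transcripts of the anterior lobe were among these 108 genes, so their low stalk level had been used to choose them. The most abundant transcript of the anterior pituitary had 277851 FPKM there, 22.8 FPKM in the stalk and 120475 FPKM in the posterior pituitary. The next had 85309 FPKM in the anterior pituitary, 1.19 in the stalk and 38310 in the posterior pituitary. Their posterior levels were 43.4% and 44.9% of the anterior ones, log2 differences of 1.21 and 1.15, so neither counted as different between the lobes although both were nearly missing from the stalk. Outside the pituitary and pineal libraries their median over the 82 other tissues was 0.166 and 0 FPKM, and the highest was the library labelled mammary, with 24726 and 52177 FPKM. The third transcript of the anterior lobe took the opposite course. It had 7093 FPKM in the anterior pituitary, 29686 FPKM in the stalk, the most of any library, and 4329 FPKM in the posterior pituitary.

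These transcripts hold a large part of the summed FPKM of the anterior library. The 2 most abundant genes held 45.7% of the summed FPKM in the anterior pituitary, 6.28% in the stalk and 20.7% in the posterior pituitary, and the 10 most abundant held 49.7%, 14.8% and 37.6% in the same order. FPKM is relative to the mapped fragments of the library, so transcripts with a large share of these can lower the values of other genes. The share of fragments is not known from summed FPKM, and such an effect was not tested. Scaled to equal totals without the 10 most abundant genes of either lobe, the median difference between the lobes was 0.06, and 18 genes were higher in the anterior and 198 in the posterior lobe, all 198 among the 248.

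The 10 leading genes of the posterior lobe included 6 of the 10 leading genes of the anterior lobe. Behind its 2 most abundant transcripts, ranks 3 to 10 were all among the 248 genes, at 4.61 to 7.996 times their anterior levels. Apart from the third, each was intermediate in the stalk: the fourth, for example, had 3073 FPKM in the anterior pituitary, 11929 in the stalk and 21297 in the posterior pituitary. Its brain levels ran from 9749 to 75058 FPKM, and its median over the 90 libraries outside the pituitary and pineal gland was 10423. For 5 of the 7 genes at ranks 4 to 10 the anterior pituitary was the lowest of all 94 libraries, and for the other 2 it ranked 84 and 93. The posterior pituitary ranked between 22 and 63 for the same 7 genes, that is in the range of most other tissues.

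**Figure D5:**
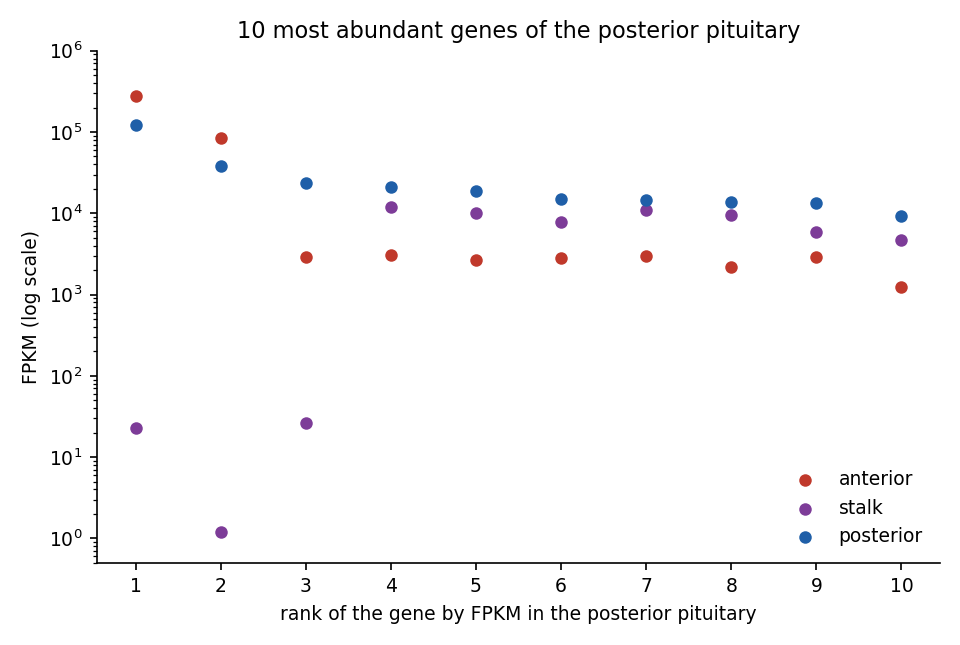
FPKM (log scale) in the anterior pituitary, stalk and posterior pituitary of the 10 genes most abundant in the posterior pituitary, ordered by their rank there. The first 2 are higher in the anterior lobe and under 25 FPKM in the stalk, the third is highest in the posterior lobe and at 26.3 FPKM in the stalk, and for ranks 4 to 10 the stalk lies between the lobes.

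Some genes were higher in the stalk than in both lobes. Of 8455 genes at 10 FPKM or more in any of the 3 libraries, 135 (1.6%) were higher in the stalk than in each lobe by at least 2 on the log2 scale, with medians of 1.39 in the anterior lobe, 5.11 in the stalk and 2.01 in the posterior lobe. These were chosen for a high stalk level, and the stalk was the highest of all 94 libraries for 54 of them. Both lobes were under 1 FPKM for 20, and the 135 genes reached 1 FPKM in a median of 53 libraries. After the 29686 FPKM transcript, of which the pineal gland had 23451 FPKM, the most abundant had 248 FPKM in the anterior pituitary, 2484 in the stalk and 177 in the posterior pituitary. The next had 97.9 FPKM in the anterior pituitary, 2068 in the stalk and 86.9 in the posterior pituitary, with at most 16.6 FPKM in any brain region. The fifth had 2.90 FPKM in the anterior pituitary, 573 in the stalk and 5.59 in the posterior pituitary, with a maximum of 0.207 in the brain. The leading genes varied in the brain: the 2484 FPKM transcript had 15.3 to 248 FPKM in the brain regions. The fourth had 976 FPKM in the stalk and 2.58 to 64.7 in the brain. Over the 135 genes, brain regions had medians of 0.99 to 2.73, below the stalk, and the 82 other libraries a median of 1.17. A further 49 genes (0.58%) were lower in the stalk than in each lobe, with medians of 4.98 in the anterior lobe, 1.13 in the stalk and 4.18 in the posterior lobe, and 44 of these were higher in the anterior than in the posterior library. The 2 leading transcripts of the anterior lobe, described above, were among these 49.

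The pineal gland was closer to the anterior lobe than either other pituitary library was. It differed from the anterior lobe in 80 of 7664 genes (1.04%), 34 higher in the anterior lobe (0.444%) and 46 lower (0.6%). Between the lobes 261 of 7434 genes differed (3.51%). The likeness was not confined to the anterior lobe. The posterior lobe differed from the pineal gland in 218 of 7896 genes (2.76%). The stalk differed from the pineal gland in 411 of 8453 genes (4.86%) and from the anterior lobe in 626 of 8292 (7.55%). The pineal gland had 60548 and 110316 FPKM of the 2 transcripts that lead the anterior lobe. Its level was above that of the anterior lobe for 83.5% of the 248 genes and for 81.1% of all genes compared. The pineal level was above that of the posterior lobe for 1 of the 248 (0.403%), against 64.7% of all genes compared. The 248 had been chosen for a low anterior and a high posterior level. Over these genes the pineal median was 2.64 on the log2(FPKM + 1) scale, against 5.41 to 6.26 in the brain regions. The 82 other libraries had a median of 3.16. The libraries of pituitary and pineal gland were not checked against markers. The part of dissection or labels in the likeness of the pineal gland to the pituitary libraries was not tested. For scale, the same count was 17 of 6963 genes (0.244%) for kidney cortex against kidney medulla. Ventricle against atrium gave 116 of 5504 (2.11%). Over 28 pairs of brain libraries it ran from 6 (0.0851%) to 1988 (26.1%) with a median of 354.5. The lowest was cerebral cortex against frontal cortex, whose labels overlap.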

How the data were processed

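RNA sequencing values of 94 bovine libraries were used, mainly the 3 pituitary ones. The deposited values are FPKM per Ensembl gene identifier, per the file name, made by the authors with HISAT2, StringTie and the build UMD3.1 according to the submitters' processing notes. Tool versions and the annotation are not given in the sources. The RefSeq table for ARS-UCD2.0 holds no Ensembl identifier, 0 of 24616 could be named and the gene lists were not run; the rule then names the 2 identifiers with the largest difference in each direction, and other genes are described without identifiers. Some were picked after their values were seen.

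Values were compared as log2(FPKM + 1), anterior minus posterior, for genes with 10 FPKM or more in either lobe, and counted at a difference of 2. With 1 library a tissue no test was made. The 8 brain libraries carry different region labels and are not replicates of a tissue. Some labels overlap: frontal and temporal cortex are parts of the cerebral cortex, and the thalamus is part of the diencephalon. The counting step was checked on a copy of the posterior library with known changes put into 200 genes at 50 FPKM or more. These changes exceeded the limit counted and no random error was added, so the check covers the calculation only. Spearman correlations used genes at 1 FPKM in at least 3 libraries. Alternatives were the pseudocount, the FPKM minimum, the fold and 4 scalings.

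Read depth is unknown: low values do not fall on common steps. The commonest ratio of anterior to posterior values among 3007 genes under 1 FPKM was 0.5, in 17 genes, which if they are single fragments gives the anterior library more depth. Members, tests and lists were chosen with earlier results of these data known. Python 3.11.15, numpy 2.4.6, pandas 2.3.3 and matplotlib 3.10.9 were used.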

Additional observations from a re-analysis of the deposited data

Results flagged for a closer look

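Of 6 sets of values over the 8 brain regions that were screened for a sample far from the others, 1 was picked out. ENSBTAG00000037452, higher in the anterior than in the posterior pituitary, had 2.76 FPKM in the thalamus, with a gap to the next region above 0.526 of the whole range. Chance picks out about 1 in 20 sets of 8 independent values from a normal distribution. These values come from different regions, and for this gene their minimum and median were 0 FPKM, so that rate cannot be applied. No cause was tested.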

How the results depend on the processing

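No paired analysis was possible because each pituitary tissue has 1 library and the labels give no replicate numbers, and leaving out a replicate was not possible for the same reason. List medians were not run, since no identifier could be named. The excess of genes higher in the posterior lobe was seen under all 10 alternatives. With a minimum of 50 FPKM, 5 genes were higher in the anterior and 94 in the posterior lobe. At a log2 difference of 1 the counts were 138 and 691, and at 3 they were 3 and 125. Quantile normalization gave 35 higher in the anterior lobe, among them all 13. The share of differing genes for which the stalk lay between the lobes, 65.5%, was 74.1% with equal totals without the 10 most abundant genes, 72.5% with median-of-ratios scaling, 44.4% at a log2 difference of 1 and 83.6% at 3. The share nearer the anterior lobe, 22.2%, was 27.6% with a minimum of 1 FPKM and with no filter, 17.2% with a minimum of 50, 34.3% with equal totals without the 10 most abundant genes, 32.6% with median-of-ratios scaling, 32.7% with quantile normalization, 16.9% at a log2 difference of 1 and 32.8% at 3. The brain median of the 13 genes, 0.49, was -0.998 with a pseudocount of 0.1, which by construction lowers values near 0. The causes of the other shifts were not tested. Differences of the 4 identified genes kept their sign; that of ENSBTAG00000035926 ran from 7.17 to 10.51. With unknown depth and no replicate, differences of low genes have no stated precision.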
